A study of Mus musculus with 6 samples.

Results

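The B cell genes examined here are 9 genes of the B lineage, *Vpreb1*, *Vpreb3*, *Igll1*, *Cd79a*, *Cd79b*, *Ms4a1*, *Pax5*, *Blnk* and *Igj*, measured in mouse cochlear tissue. Members were taken by symbol: each probe annotated with one of these names was used, which gave 9 probes for 7 genes, of 25697 probes for 18138 symbols on the Illumina MouseRef-8 v2 BeadChip. No probe carried the symbol *Igll1* or *Cd79a*, so these genes are given no value. Of the 3 pro/pre-B genes, 2 had a probe, and of the 6 mature B and plasma cell genes, 5 had a probe. The WT group was 3 wild type C57BL/6 mice (C57BL/6J in the study's methods) and the *Cmah*-null group was 3 mice of that strain that lack CMP-Neu5Ac hydroxylase, the enzyme that makes the sialic acid Neu5Gc. All were 12 months old, their sex and any treatment are not recorded, and each sample was hybridized to 1 array. The deposited columns call the second group "old" and were matched to *Cmah*-null by replicate number. With 3 samples a group, p-values measure the spread between these samples only.

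B cells are made in bone marrow. A pro-B cell that has joined a heavy chain gene shows this chain on its surface with a surrogate light chain, made of the proteins of *Vpreb1* and *Igll1*, and the resulting pre-B cell receptor tests the heavy chain before a true light chain exists. The same signalling pair, the proteins of *Cd79a* and *Cd79b*, serves the pre-B cell receptor and the antigen receptor of mature B cells, and the adaptor made by *Blnk* carries the signal onward. *Pax5* encodes the transcription factor that holds B cell identity, *Ms4a1* encodes the surface protein CD20, and *Igj* (now *Jchain*) encodes the chain that joins secreted IgM and IgA into polymers in plasma cells. The temporal bone around the cochlea contains marrow.

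Each probe is an oligonucleotide of 50 bases, and its sequence sets what is being measured. The probes for the 4 detected genes are shown because the results rest on them. Only the first 30 bases of the *Vpreb1* probe (ILMN_2846485) and of the first *Cd79b* probe (ILMN_2610822) are given. For *Blnk*, capitals mark the 49 bases that its 2 probes share, so these are 2 readings of 1 stretch of transcript and not independent. The 2 *Cd79b* probes share no run longer than 5 bases.
Vpreb1 ILMN_2846485, first 30 bases: gctcggctagtctggtatgggaaggagggg
Vpreb3 ILMN_2469253: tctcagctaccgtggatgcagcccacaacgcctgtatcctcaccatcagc
Cd79b ILMN_2610822, first 30 bases: ctggggatagacttgacccaaggcttctgg
Cd79b ILMN_2661523: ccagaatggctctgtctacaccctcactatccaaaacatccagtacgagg
Blnk ILMN_1244526: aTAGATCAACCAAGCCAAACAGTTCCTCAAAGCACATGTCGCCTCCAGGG
Blnk ILMN_2726931: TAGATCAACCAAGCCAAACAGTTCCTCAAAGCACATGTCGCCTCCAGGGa

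The deposited annotation places the *Vpreb1* probe on the minus strand of chromosome 16, from 16868593 to 16868642. It places the *Cd79b* probes on the minus strand of chromosome 11, from 106172864 to 106172913 at position 1080 of the transcript and from 106174035 to 106174084 at position 475. The second *Blnk* probe crosses an exon junction on the minus strand of chromosome 19, with its bases at 41043005 to 41043038 and at 41047076 to 41047091. The genome build of these positions is not named in the sources used here. The *Vpreb1* probe shared no run longer than 10 bases with the probe of its close relative *Vpreb2*, and the *Vpreb2* probe (ILMN_2428897) was detected on 0 of the 6 arrays.

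Between 13873 and 15223 probes were detected on an array, that is, had a detection p under 0.05 against the negative control beads. The *Cmah* probe was detected on 1 WT array and 2 *Cmah*-null arrays, with log2 signals of 7.27 to 7.87 in WT and 7.27 to 7.98 in *Cmah*-null samples, so near background that it does not check the genotype. Of the cochlear markers, *Otos*, *Coch*, *Tecta* and *Otoa* were detected on 6 arrays, *Kcne1* on 5, *Kcnq1* on 2 and *Tectb* on none. *Cmah*-null replicates 1 and 2 stood closest together: the log2 difference between them had an SD of 0.138, and that between any other pair 0.391 to 0.851. The 3 arrays a group limit the precision of every value below.

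Transcripts of the B lineage were measurable in both genotypes, and they were those of *Vpreb1*, *Vpreb3*, *Cd79b* and *Blnk*. No B cell gene changed between genotypes at an adjusted p under 0.05 in limma, with Benjamini-Hochberg adjustment over all probes. *Cd79b* had the largest difference, a mean signal 1.64-fold higher in WT, with overlapping groups. *Blnk* was the only one of them whose groups did not overlap, at a signal close to background and 1.22-fold and 1.26-fold higher in *Cmah*-null samples by its 2 probes. *Vpreb1* and *Vpreb3* differed in opposite directions by less than their own intervals.

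Of the 9 probes, 3 were detected on all 6 arrays, 2 on 5 arrays, 1 on 2 arrays and 3 on none. In limma, 0 of the 9 had an adjusted p under 0.05, where the background over all probes was 0% and the smallest adjusted p of any probe was 0.250. At an unadjusted p under 0.05 there were 2 of 9, both for *Blnk*, and 2199 of all 25697 probes. The study used a threshold of 1.5-fold with a p under 0.05, taken here as the unadjusted p of limma and called the 1.5-fold rule below, and by it 0 of 9 were higher in *Cmah*-null samples, against 1.30% of all probes, and 0 of 9 were lower, against 1.41%. At 1.5-fold alone there was 1, the first *Cd79b* probe. Of the 5 probes detected on at least 3 arrays, 2 had every *Cmah*-null array above every WT array, where 10.8% of all probes detected that often did so, and 0 had every *Cmah*-null array below, where 8.29% did. These 2 are the overlapping *Blnk* probes, so the count stands for 1 gene.

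**Figure D1:**
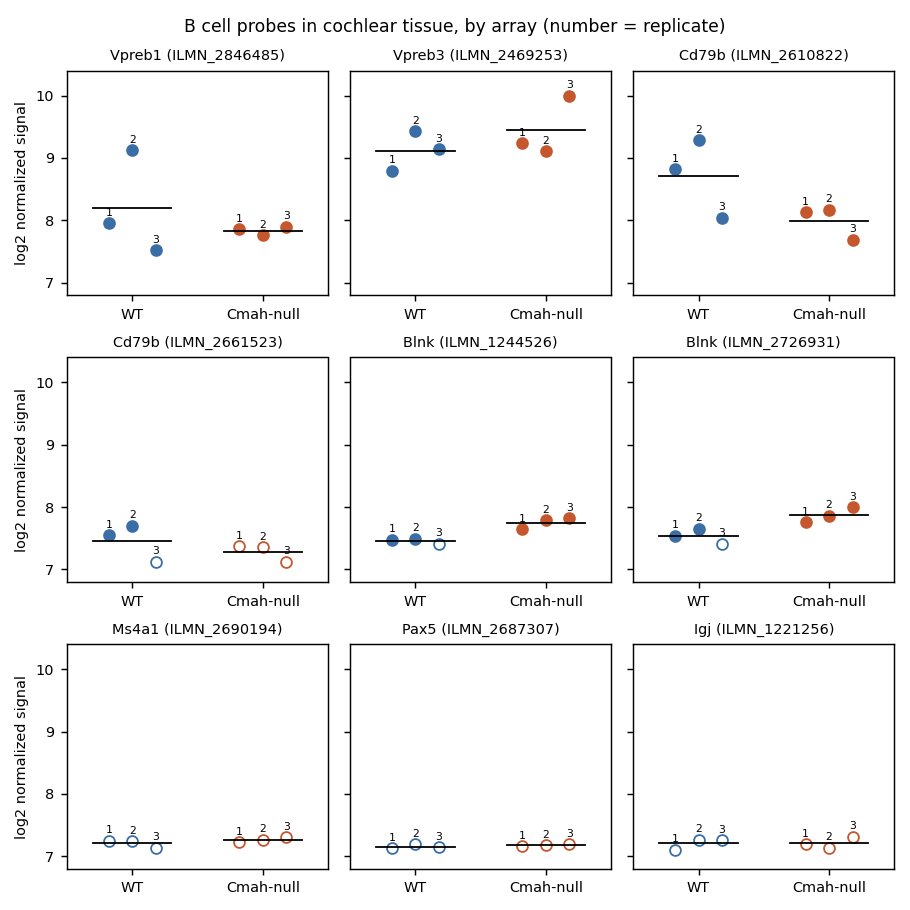
Log2 normalized signal (y axis) of each of the 9 B cell probes on the 3 WT (blue) and 3 Cmah-null (orange) arrays, with the replicate number above each point and a line at the group mean; filled points were detected at a detection p under 0.05. The Vpreb1 point at 9.12 is WT replicate 2, every Blnk point of the Cmah-null group lies above the WT points, and the probes of Ms4a1, Pax5 and Igj are open on all 6 arrays.

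*Vpreb1*, the pre-B cell receptor gene, had log2 signals of 7.95, 9.12 and 7.52 on WT arrays 1, 2 and 3 and of 7.85, 7.76 and 7.89 on *Cmah*-null arrays 1, 2 and 3. WT replicate 2 stood far above the other 5 arrays, and the lowest value was also a WT array, so the groups overlapped. The mean was 8.19 ± 0.83 in WT and 7.83 ± 0.07 in *Cmah*-null samples (SD, n = 3 each). The difference, *Cmah*-null minus WT, was -0.36 on the log2 scale (SE 0.40, 95% interval -1.35 to 0.63, limma adjusted p = 0.823). WT replicate 2 decided its sign: without that array it was 0.10 (SE 0.16), and without WT replicate 3 it was -0.70. Before normalization the bead signal was 475 on WT replicate 2, with a standard error over the beads of 18.1, and 186 to 254 on the other arrays, so the high value was present in the raw signal and exceeded the error within an array.

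*Vpreb3*, a relative of *Vpreb1* whose protein binds the heavy chain inside early B cells, was detected on every array. Its log2 signal was 8.79, 9.42 and 9.14 on WT arrays 1, 2 and 3 and 9.23, 9.11 and 9.996 on *Cmah*-null arrays 1, 2 and 3. Here the highest array was *Cmah*-null replicate 3, the lowest was WT replicate 1, and the other 4 were interleaved. The mean was 9.12 ± 0.32 in WT and 9.45 ± 0.48 in *Cmah*-null samples (SD, n = 3 each), a difference of 0.33 (SE 0.28, 95% interval -0.37 to 1.03, limma adjusted p = 0.772). Without *Cmah*-null replicate 3 the difference was 0.05 (SE 0.19), without WT replicate 1 it was 0.16, and without *Cmah*-null replicate 2 it was 0.50. With the arrays of fewer and of more beads as a block it was 0.55 (limma adjusted p = 0.156). In raw bead signal all 3 *Cmah*-null arrays, at 692 to 868, lay above all 3 WT arrays, at 447 to 575, an order that the quantile step did not keep. Scaled to a common median instead, *Vpreb3* differed by 0.63 (limma adjusted p = 0.161), while that scaling moved the median over probes detected on 6 arrays from 0.03 to 0.30, so its difference relative to those probes stayed near its value above.

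**Figure D2:**
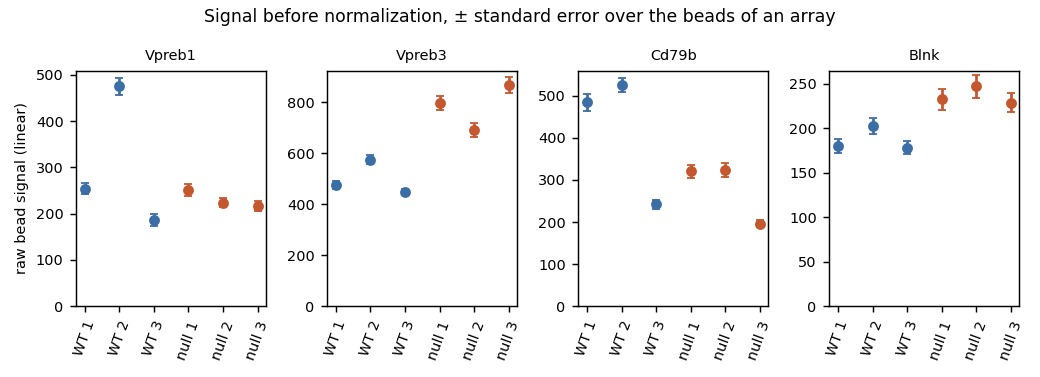
Average bead signal on a linear scale before normalization (y axis) for Vpreb1, Vpreb3, the first Cd79b probe and the second Blnk probe (ILMN_2726931) on each array; bars are the standard error over the beads of that array, blue is WT and orange Cmah-null. Vpreb1 is high on WT 2 alone, at 475, and Cd79b is high on WT 1 and WT 2, at 484 and 525.

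*Cd79b*, the signalling chain shared by the early and the mature receptor, had log2 signals of 8.82, 9.28 and 8.04 on WT arrays 1, 2 and 3 by its first probe (ILMN_2610822), and of 8.13, 8.17 and 7.69 on *Cmah*-null arrays 1, 2 and 3. WT replicates 1 and 2 lay above all other arrays, while WT replicate 3 lay below *Cmah*-null replicates 1 and 2. The mean was 8.71 ± 0.63 in WT and 7.995 ± 0.26 in *Cmah*-null samples (SD, n = 3 each), a difference of -0.72 (SE 0.33, 95% interval -1.53 to 0.10, limma adjusted p = 0.624). An exact permutation test over the 6 samples gave p = 0.3 (two-sided), where 0.1 is the smallest p that 3 against 3 allows. The difference was -0.43 without WT replicate 2 and -1.05 without WT replicate 3, and neqc, which subtracts background, gave -1.20 (adjusted p in limma of 0.596).

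The second *Cd79b* probe (ILMN_2661523) read an earlier stretch of the transcript and was detected less often. Its log2 signals were 7.54, 7.70 and 7.12 on WT arrays 1, 2 and 3 and 7.37, 7.36 and 7.13 on *Cmah*-null arrays 1, 2 and 3, and it passed detection on WT replicates 1 and 2 alone. As with the first probe, these 2 arrays were the highest of the 6. The means were 7.46 ± 0.30 in WT and 7.28 ± 0.14 in *Cmah*-null samples (SD, n = 3 each), where it was not above background, so no fold is given.

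*Blnk*, the adaptor that links the receptor's kinase to phospholipase C, gave log2 signals of 7.48, 7.50 and 7.41 on WT arrays 1, 2 and 3 and of 7.65, 7.79 and 7.82 on *Cmah*-null arrays 1, 2 and 3 by probe ILMN_1244526. Every *Cmah*-null array was above every WT array, by less than the range within the *Cmah*-null group. The mean was 7.46 ± 0.04 in WT and 7.75 ± 0.09 in *Cmah*-null samples (SD, n = 3 each), a difference of 0.29 (SE 0.08, 95% interval 0.09 to 0.48, limma adjusted p = 0.470). Probe ILMN_2726931, shifted by a single base from the first, gave 7.54, 7.65 and 7.42 in WT and 7.76, 7.86 and 7.998 in *Cmah*-null samples 1, 2 and 3, a difference of 0.34 (SE 0.10, 95% interval 0.08 to 0.59, limma adjusted p = 0.514). The exact permutation test gave p = 0.1 for each probe, the smallest it can give.

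The *Blnk* signal was near the limit of detection. The lowest log2 signal of a detected probe was 7.44 to 7.57 depending on the array, and *Blnk* was not detected on WT replicate 3 by either probe. With neqc the differences were 0.79 and 0.87 (limma adjusted p = 0.366 and 0.420), so the size of the *Blnk* difference depends on how background is treated. The direction of that difference did not change in any of the 14 alternatives, some of which leave the estimate as it was. *Blnk* is also made by macrophages and other myeloid cells, and in RNA from whole tissue fewer cells of a type and less RNA per cell cannot be told apart, for this gene and for every gene here.

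**Figure D3:**
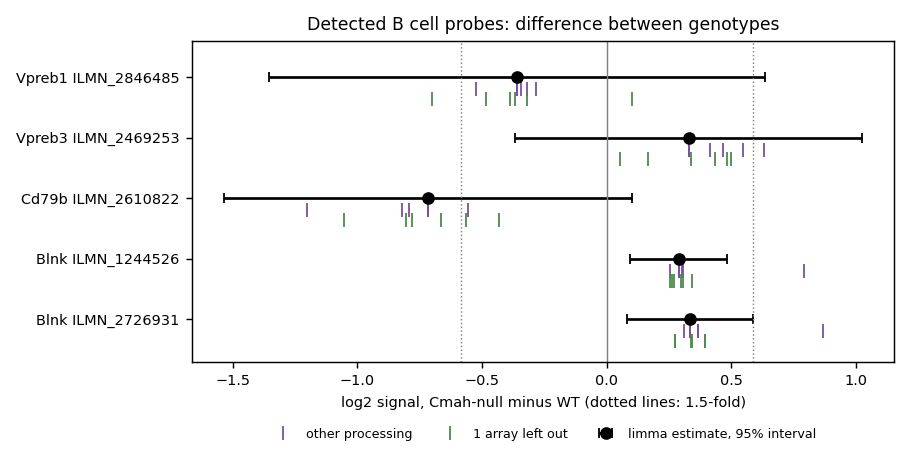
Log2 difference, Cmah-null minus WT (x axis), of the 5 B cell probes detected on at least 3 arrays: black points are limma estimates with 95% intervals, purple ticks are other ways of processing, green ticks are fits with 1 array left out, and dotted lines mark 1.5-fold. The Vpreb1, Vpreb3 and Cd79b intervals cross 0, and the green tick of Vpreb1 at 0.10 is the fit without WT replicate 2.

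The other mature members, *Ms4a1*, *Pax5* and *Igj*, were not detected on any array. *Ms4a1* (ILMN_2690194) read 7.25, 7.24 and 7.14 in WT samples 1, 2 and 3 and 7.23, 7.26 and 7.31 in *Cmah*-null samples 1, 2 and 3. *Pax5* (ILMN_2687307) read 7.13 to 7.19 in WT and 7.16 to 7.20 in *Cmah*-null samples, and *Igj* (ILMN_1221256) read 7.10 to 7.27 and 7.14 to 7.32. All of these values lie below the lowest signal of a detected probe on their array, so they are readings of background, and an absent signal at this sensitivity does not show that the transcript was absent.

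The pro/pre-B genes and the mature genes did not move as 2 blocks. The mean log2 level of *Vpreb1* and *Vpreb3* was 8.37, 9.27 and 8.33 in WT and 8.54, 8.43 and 8.95 in *Cmah*-null samples 1, 2 and 3, which gave 8.66 ± 0.53 and 8.64 ± 0.27 (SD, n = 3 each). The mean of *Cd79b* and *Blnk*, the mature members detected on at least 3 arrays, was 8.16, 8.43 and 7.73 in WT and 7.91, 7.996 and 7.80 in *Cmah*-null samples, which gave 8.11 ± 0.35 and 7.90 ± 0.10. WT replicate 2 was the highest array in both groups of genes, and the genotypes overlapped in both. The difference was -0.02 for the pro/pre-B genes and -0.20 for the mature genes, beside a median of 0.02 over all probes detected on at least 3 arrays. Each of these means holds 1 gene that was higher and 1 that was lower in *Cmah*-null samples, so neither describes its members. Without WT replicate 2 the values were 0.29 and -0.04. No test was made of either group, since the members were chosen with results of these data known.

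Other genes of the lineage, from lists written for this comparison, were in part present. Of 16 other early B lineage genes, 14 had a probe and 8 were detected on at least 3 arrays, and 0 were higher and 0 lower by the 1.5-fold rule, with a median difference of 0.15. *Ebf1*, a transcription factor that acts with *Pax5*, differed by 0.31 (SE 0.22), *Bcl7a* by 0.28 (SE 0.23) and *Cd24a*, a surface marker of developing B cells, by -0.27 (SE 0.19). *Rag1*, the recombinase that joins receptor gene segments, was detected on 4 arrays at 7.46, 7.91 and 7.55 in WT and 7.46, 7.40 and 7.66 in *Cmah*-null samples. WT replicate 2, the array with the highest *Vpreb1*, was also highest for *Rag1*, and the groups overlapped. *Dntt*, which adds bases at the joints, and *Rag2* were detected on none.

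Of 27 other mature B cell genes, 23 had a probe and 17 were detected on at least 3 arrays. Of these 17, 2 were higher and 0 lower by the 1.5-fold rule, with a median difference of 0.06 (0.10 without WT replicate 2). By that rule 1.30% of all probes, detected or not, were higher and 1.41% lower, and the share among detected probes was not computed. At an unadjusted p under 0.05 in limma alone there were 1951 of the 14883 probes detected on at least 3 arrays, and 2199 of all 25697. *Plcg2*, the phospholipase that acts below *Blnk*, had log2 signals of 9.91, 10.28 and 10.03 in WT and 10.80, 10.78 and 11.15 in *Cmah*-null samples. *Cd37*, a surface tetraspanin of leukocytes, had 7.71, 7.64 and 7.45 in WT and 8.21, 8.02 and 8.95 in *Cmah*-null samples. In both genes every *Cmah*-null array lay above every WT array, as in 10.8% of all detected probes, with mean differences of 0.83 (SE 0.15, limma adjusted p = 0.397) and 0.80 (SE 0.25, limma adjusted p = 0.529), and neither passed the adjusted threshold. Both are also made by myeloid cells.

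Of 24 plasma cell and immunoglobulin symbols, 12 had a probe and 7 were detected on at least 3 arrays, with 0 past the same rule in each direction and a median difference of 0.03 (0.13 without WT replicate 2). No probe carried the symbol of an immunoglobulin heavy or kappa chain that was looked for. *Tnfrsf17* and *Prdm1*, which mark plasma cells, were detected on none, nor were *Tnfrsf13b* and *Derl3*. Other genes of this list, *Irf4*, *Sdc1*, 2010001M09Rik and *Fkbp11*, were among the 7 detected. *Xbp1*, a factor of secretory cells in general, was detected on all 6 arrays and differed by 0.31 (SE 0.15), *Sec11c* by -0.69 (SE 0.48) and *Creld2* by 0.40 (SE 0.11, limma adjusted p = 0.479).

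WT replicate 2 was the highest of the 6 arrays for 2 of the 4 detected B cell genes, *Vpreb1* and *Cd79b*. Erythroid and neutrophil genes stood high on it too. Genes of T and NK cells, macrophages and plasmacytoid dendritic cells did not, with mean centred log2 levels of -0.14, 0.03 and 0.03 on that array. Of 10 erythroid genes detected on at least 3 arrays, of 13 with a probe, 9 were highest on that array. Their mean log2 level, centred on the 6 arrays, was -0.04, 1.17 and -0.19 in WT and -0.04, -0.05 and -0.85 in *Cmah*-null samples, and their summed level ran from -1.88 to 11.7 in WT and from -8.51 to -0.37 in *Cmah*-null samples. The largest differences were in *Eraf* at -1.88 (SE 1.18) and *Hbb-b2* at -1.13 (SE 0.47). The list's median difference was -0.57 and, without WT replicate 2, -0.10, 0 of its genes passed the 1.5-fold rule in each direction, and *Rhd* and *Epb4.2* were detected on no array.

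Of 15 neutrophil and granulocyte precursor genes detected on at least 3 arrays, of 16 with a probe, 7 were highest on WT replicate 2. Their centred level was -0.45, 0.54 and -0.65 in WT and 0.30, 0.29 and -0.02 in *Cmah*-null samples, their summed level ran from -9.78 to 8.08 and from -0.36 to 4.53, and *Mmp8* was detected on no array. The list's median difference was 0.34 and, without WT replicate 2, 0.89, with 0 genes past the rule in each direction, and *Retnlg* differed by 0.93 (SE 0.46) and *Mpo* by 0.92 (SE 0.60). The part of these blood cells in the *Vpreb1* and *Cd79b* signals was not tested.

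*Vpreb3* and *Blnk* were both highest on *Cmah*-null replicate 3, at 9.996 for *Vpreb3* and at 7.82 and 7.998 for the 2 *Blnk* probes. That array was also highest for the T and NK cell genes, at a centred level of 0.32 against -0.30 to 0.09 elsewhere. Of those 16 genes with a probe, 11 were detected on at least 3 arrays, *Cd4*, *Cd8a* and *Ncr1* were detected on none, and the summed level ran from -3.26 to 0.38 in WT and from -0.15 to 3.54 in *Cmah*-null samples. The median difference was 0.17, with 0 genes past the rule, and *Ccl5* differed by 0.86 (SE 0.55) and *Cd3e* by 0.69 (SE 0.35). The other early B lineage genes were highest there as well, at 0.33 against -0.15 to 0.04. Macrophage genes, of which 15 of 16 were detected, were lowest on that array, at -0.48, and had summed levels of -5.65 to 3.95 in WT and -7.22 to 4.44 in *Cmah*-null samples, and *Msr1* was detected on no array. Their median difference was 0.08 (0.13 without WT replicate 2), with 0 genes past the rule, and *C1qb* differed by 0.57 (SE 0.49) and *Cd14* by 0.54 (SE 0.28). Of 9 plasmacytoid dendritic cell genes 8 were detected, with a median difference of 0.16, 0 genes past the rule and summed levels of -2.94 to 0.85 and -0.28 to 1.14, *Ccr9* was detected on no array, and *Ly6d* differed by 0.45 (SE 0.65) and *Lag3* by 0.38 (SE 0.12). The part of these cell types in the *Vpreb3* and *Blnk* signals was not tested.

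Tissue around the cochlea differed between arrays too. Skeletal muscle genes, all 14 with a probe detected, had a centred level of 0.67, 0.70 and -0.42 in WT and -0.41, -0.38 and -0.18 in *Cmah*-null samples, high on the same WT arrays 1 and 2 as *Cd79b*. Their summed level ran from -5.83 to 9.83 and from -5.70 to -2.48, the median difference was -0.54 (-0.33 without WT replicate 2), and 1 was lower and 0 higher by the rule. *Mylpf* differed by -1.65 (SE 0.92) and *Casq1* by -1.31 (SE 0.65). Fat genes had a centred level of 0.06 to 0.72 in WT and -1.09 to -0.15 in *Cmah*-null samples, a summed level of 0.64 to 7.93 and -12.03 to -1.61, and a median difference of -0.77, with *Ucp1* at -2.11 (SE 0.52) and *Cidea* at -2.01 (SE 0.42), and 4 of the 11 detected were lower by the rule, while *Retn* was detected on no array. Of 14 detected cochlear genes 1 was higher by that rule, *Ush1c* at 0.97 (SE 0.19), and *Otos* differed by -0.65 (SE 0.61). Over all probes, detected or not, 1.30% were higher and 1.41% lower by the rule. The part of muscle and fat in the *Cd79b* signal was not tested.

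**Figure D4:**
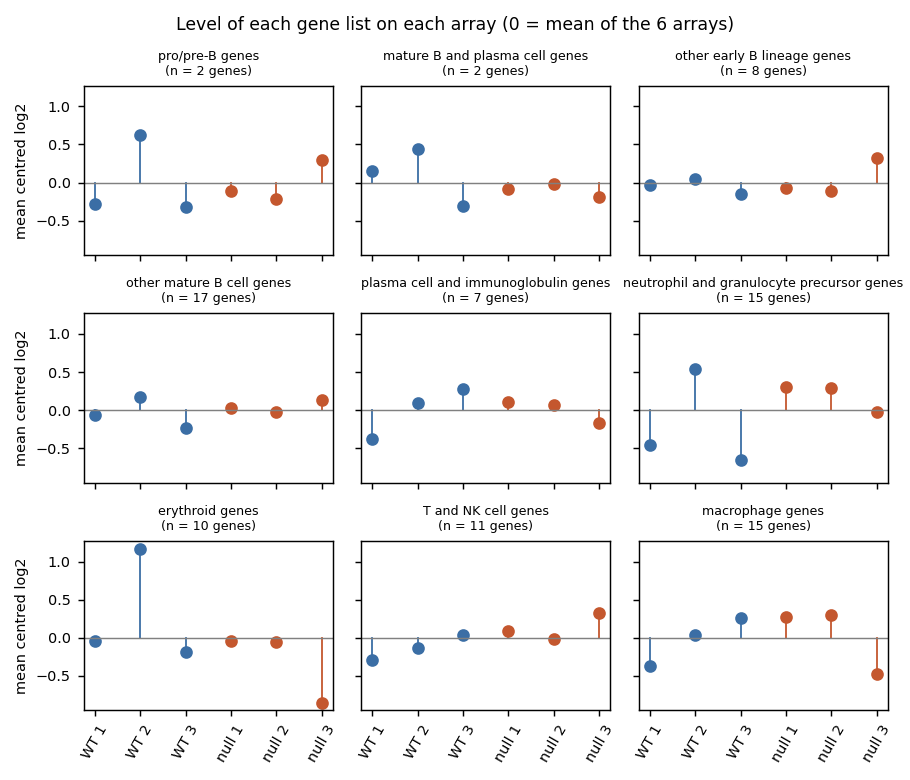
Mean log2 level of each gene list on each array (y axis, each gene centred on its mean over the 6 arrays, genes detected on at least 3 arrays), WT in blue and Cmah-null in orange. WT 2 stands at 1.17 for erythroid genes and at 0.62 for the pro/pre-B members, and null 3 stands highest for the other early B lineage genes, at 0.33.

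The genes whose level over the 6 arrays was most like that of a member were named by Pearson correlation among 12407 probes detected on all arrays, as a description. With 6 points, of which *Cmah*-null replicates 1 and 2 nearly coincide, high values are common: 59 probes exceeded 0.9 for *Vpreb1*, 125 for *Cd79b*, 142 for *Blnk* and 600 for *Vpreb3*. For the mean of the pro/pre-B probes, the 8 nearest were *Sgms2* (r = 0.994), *Chaf1a*, *Narf*, *Tcf19*, *Cdca2*, *Tmem119*, *Cdc20* and *Sat2* (r = 0.976). *Chaf1a* loads histones behind the replication fork, and *Cdca2* and *Cdc20* act in mitosis. The mean of the mature B probes was taken here over the first *Cd79b* probe and both *Blnk* probes. *Blnk* thus weighs more in it than in the mean of the 2 genes given above. The 8 nearest to it were *Fkbp10* (r = 0.967), *Wfdc1*, *Ifitm5*, *Cryba4*, *Ampd1*, *Nfe2*, *Tspan33* and *Mcm2* (r = 0.920), which include an osteoblast gene, *Ifitm5*, and an erythroid and megakaryocyte factor, *Nfe2*.

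Taken singly, a choice made after the data were seen, the members had different neighbours. *Vpreb1* was nearest to *Trim10* (r = 0.994), *Icam4*, *Rrm2*, *Cenpa*, *Hist1h1b*, *Col24a1*, *Cdc6* and *Aurka* (r = 0.978). *Trim10* and *Icam4* are erythroid genes, and *Rrm2*, *Cenpa*, *Hist1h1b*, *Cdc6* and *Aurka* serve DNA synthesis or cell division. The first *Cd79b* probe was nearest to *Mlf1* (r = 0.994), *Prpf19*, *Car2*, *Bglap1*, *Ppic*, *Fam20b*, *Cbfb* and *Tmod4* (r = 0.977), among them the osteoblast gene *Bglap1* and the muscle gene *Tmod4*. *Vpreb3* was nearest to *Myo1f* (r = 0.999), *Dennd1c*, *Isg20l2*, *Cdca5*, *Kcnk12*, *Egr4*, *Kdelc1* and LOC100048504 (r = 0.987), of which *Myo1f* is a myosin of leukocytes and *Cdca5* acts in chromosome cohesion. *Blnk* (ILMN_2726931) was nearest to *Ifnar2* (r = 0.989), *Col14a1*, *Pld2*, *Stambp*, *Crtap*, *Ap2s1*, *Smg5* and *Kl* (r = 0.969).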

How the data were processed

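Total RNA of cochlear tissue from 3 WT and 3 *Cmah*-null mice was hybridized to Illumina MouseRef-8 v2 arrays, 1 per sample. Per the file headers, the authors deposited for each probe an intensity, which is the mean signal of its beads in linear units before any normalization, with its bead standard error, the count of beads and a detection p-value against negative controls. A second deposited table holds log2 values, which matched a quantile normalization of the log2 raw signals computed anew to within 5e-07. The scanner software and its version are not given in the sources used here. Another 12 columns that repeat signals and detection p-values were not used, nor were the authors' own comparison columns (group means, SDs, a signed fold change, a local pooled error statistic and its adjusted p-value).

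The deposited log2 values of all 25697 probes were fitted in R 4.3.3 by limma (version 3.58.1), with lmFit and then eBayes and a two-sided test of genotype alone. P-values were adjusted over all probes by Benjamini-Hochberg, and an exact permutation test over samples was run for each member probe. The fit was tested on simulated data. In the means of the member groups, a gene with several probes was given the mean of those detected on at least 3 arrays. In the gene lists, and in the figure of list levels, each gene was given its brightest probe, that with the highest mean log2 signal. Every member probe is reported. Of the other lists, the genes named are those past 1.5-fold with an unadjusted p under 0.05, or the 3 with the largest difference, for B lineage lists, *Rag1*, *Dntt* and *Xbp1* in any case, and the 2 with the largest difference for other lists, and other genes were named after their values were seen. The members and lists were chosen with earlier results of these data known. Alternatives were neqc (offset 16), median scaling, quantile normalization recomputed, a detection filter, the replicate number or bead number as a block, averaging *Cmah*-null replicates 1 and 2, a trend and robust prior, the brightest probe per gene and each array left out. All 9 symbols matched RefSeq names, *Igj* as a synonym of *Jchain*. Figures were drawn with matplotlib 3.10.9.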

Additional observations from a re-analysis of the deposited data

How the results depend on the processing

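None of the 5 B cell probes detected on at least 3 arrays reached an adjusted p under 0.05 in limma under any of the 14 alternatives, where it ran from 0.156 to 0.968. The recomputed quantile normalization, the detection filter, the replicate block and the trend and robust prior left each estimate as it was. They therefore do not test direction. *Vpreb3*, *Cd79b* and both *Blnk* probes kept their direction in all 14. *Vpreb1* kept it in 13 and was reversed, to 0.10, without WT replicate 2, with a range of -0.70 to 0.10 when single arrays were left out. That range was 0.05 to 0.50 for *Vpreb3*, -1.05 to -0.43 for *Cd79b*, and 0.25 to 0.34 and 0.27 to 0.39 for the *Blnk* probes. The count at 1.5-fold with an unadjusted p under 0.05, which was 0, became 2 with neqc (both *Blnk* probes), 1 with median scaling (*Vpreb3*) and 1 with the trend and robust prior (*Cd79b*), and ran from 0 to 1 when single arrays were left out (*Cd79b* without WT replicate 3). The difference of the pro/pre-B genes ran from -0.18 to 0.29. It was above 0 with median scaling (0.16), with the bead number block (0.13) and with *Cmah*-null replicates 1 and 2 averaged (0.06). It was also above 0 without WT replicate 2 (0.29), without *Cmah*-null replicate 1 (0.03) and without *Cmah*-null replicate 2 (0.09). That of the mature genes ran from -0.39 to -0.04. The cause of these shifts was not tested.

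With the replicate block the count was 1 (*Cd79b*, limma adjusted p = 0.536). Deviations of samples with the same number correlated at 0.02, -0.17 and 0.01 for numbers 1, 2 and 3, which shows no sign of pairing by number. With 3 samples a group, and *Cmah*-null replicates 1 and 2 close together, these values cannot exclude it. Signal over background limits *Blnk*, the second *Cd79b* probe, *Vpreb1* on every array but WT replicate 2 and the first *Cd79b* probe on *Cmah*-null replicate 3, and nothing can be said of *Ms4a1*, *Pax5* and *Igj* beyond their not being detected.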

Other observations

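A probe annotated as similar to the CD79A antigen, LOC100047815 (ILMN_1246266), is not a member by symbol and was detected on all 6 arrays. Its log2 signal was 8.41, 8.60 and 7.55 on WT arrays 1, 2 and 3 and 8.23, 8.06 and 8.50 on *Cmah*-null arrays 1, 2 and 3, a difference of 0.08 (SE 0.30). As with *Cd79b*, WT replicate 2 was the highest and WT replicate 3 the lowest of the WT arrays, but *Cmah*-null replicate 3, the lowest array for *Cd79b*, was the second highest array for this probe. Whether it reads the *Cd79a* transcript was not tested.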
